A study of Homo sapiens with 15 samples.

Results

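Regions marked by H3K27ac were compared between BrM2 and LM2, sub-populations of the breast cancer cell line MDA-MB-231 that colonize the brain and the lung of mice. All 62195 H3K27ac consensus peaks of the study were taken, of 84767 peaks for both histone marks, and each was given to the protein-coding gene with the nearest transcription start in hg19. The libraries compared are 2 ChIP-seq replicates of BrM2 and 2 of LM2, and 2 replicates of the parental line (Par) entered the same fit. MDA-MB-231 is a triple-negative line of the claudin-low type, and BrM2 and LM2 were selected from it in mice and then cultured, so that each is 1 selected population with no further genetic or drug treatment named. All cells were kept as a monolayer in DMEM with 10% FBS for 3 days before fixation in 1% formaldehyde. A ChIP signal averages over the cells of a culture, and more cells carrying a mark and more mark per cell cannot be told apart.

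Acetylation of lysine 27 of histone H3 is placed by the coactivators p300 and CBP at active promoters and active enhancers, and H3K4me3 is found at active promoters. Enhancers are stretches of DNA bound by transcription factors that raise transcription of a gene, often from far away, and their use differs more between cell states than that of promoters. H3K27ac away from transcription starts is therefore commonly read as a map of active enhancers. A peak over 2 kb from every protein-coding start is called distal here, and one within 2 kb a promoter peak. Which gene a distal peak acts on was not tested, since the nearest start need not be its target.

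Reads counted in peaks came to between 1994996 and 6450028 per H3K27ac library, with the lowest total in BrM2 replicate 2. Of the 7 mesenchymal or basal markers set for the check of the line, H3K27ac at the promoter peak of highest count lay between 18.4 and 100.5 normalised counts per kb in the 6 libraries, against a median of 26.3 over all promoter peaks. Among the 8 luminal markers PGR had no promoter peak, ESR1 lay between 4.75 and 26, while EPCAM (42.1 to 66.5), KRT8 (23.3 to 52.1) and KRT18 (21.6 to 37.7) lay within the range of the first group. CDH1 (8.84 to 15.1) and GATA3 (6.1 to 20.6) stayed below the median of promoter peaks in all 6 libraries, and FOXA1 (3.94 to 33.3) in 4 of them. None of these promoter peaks differed between BrM2 and LM2 at an adjusted p under 0.05.

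Because the results turn on single elements, the central 300 bases of 5 distal elements are shown first, from the GRCh37 (hg19) plus strand. They were taken from the elements with the largest differences that lie outside exons and hold a searched motif, 2 higher and 3 lower in BrM2. Capitals mark a match to a motif, read on both strands. The motifs searched were TGANTCA for AP-1 factors and GGAATG for TEAD factors, with TGTGGT for RUNX factors and TGTTTAC for forkhead factors. POU factors were represented by the octamer ATGCAAAT, while AGATAAG stood for GATA factors and GCCNNNGGC for AP-2 factors. Higher in BrM2 were the elements nearest to KIRREL3 and PIEZO2:

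KIRREL3, chr11:126863266-126863565: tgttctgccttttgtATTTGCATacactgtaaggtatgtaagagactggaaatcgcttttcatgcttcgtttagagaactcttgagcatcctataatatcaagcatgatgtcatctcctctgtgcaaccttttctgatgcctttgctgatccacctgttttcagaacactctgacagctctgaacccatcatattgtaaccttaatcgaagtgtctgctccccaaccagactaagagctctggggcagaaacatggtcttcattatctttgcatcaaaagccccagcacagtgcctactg
PIEZO2, chr18:11176082-11176381: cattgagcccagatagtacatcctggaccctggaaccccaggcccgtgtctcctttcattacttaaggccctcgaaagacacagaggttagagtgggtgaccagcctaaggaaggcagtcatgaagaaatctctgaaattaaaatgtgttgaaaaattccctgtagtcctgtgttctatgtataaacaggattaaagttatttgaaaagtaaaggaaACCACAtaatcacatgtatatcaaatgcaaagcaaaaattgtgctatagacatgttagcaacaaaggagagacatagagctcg

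Lower in BrM2 were the elements nearest to DLEU7, LRRK1 and SPRY4:

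DLEU7, chr13:51331309-51331608: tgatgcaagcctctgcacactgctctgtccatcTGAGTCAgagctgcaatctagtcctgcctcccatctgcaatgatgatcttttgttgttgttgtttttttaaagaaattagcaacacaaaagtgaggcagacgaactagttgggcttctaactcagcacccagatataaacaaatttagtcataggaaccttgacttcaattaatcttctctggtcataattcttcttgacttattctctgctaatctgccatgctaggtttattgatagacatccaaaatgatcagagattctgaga
LRRK1, chr15:101630245-101630544: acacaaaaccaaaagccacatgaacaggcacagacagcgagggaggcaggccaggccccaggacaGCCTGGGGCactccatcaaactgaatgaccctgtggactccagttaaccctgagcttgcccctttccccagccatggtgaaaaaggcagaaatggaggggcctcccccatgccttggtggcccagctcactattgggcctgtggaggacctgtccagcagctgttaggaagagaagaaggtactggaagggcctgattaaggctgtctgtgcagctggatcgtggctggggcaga
SPRY4, chr5:141805255-141805554: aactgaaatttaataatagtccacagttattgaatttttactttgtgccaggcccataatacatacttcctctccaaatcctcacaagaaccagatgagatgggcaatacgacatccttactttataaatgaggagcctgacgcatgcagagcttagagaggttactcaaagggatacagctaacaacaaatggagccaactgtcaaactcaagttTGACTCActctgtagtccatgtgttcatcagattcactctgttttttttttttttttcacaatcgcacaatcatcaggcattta

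In the KIRREL3 window the capitals are a POU octamer on the minus strand, which starts at base 16. The PIEZO2 window holds a RUNX match at base 218 on the minus strand. Each window holds 1 match. DLEU7 and SPRY4 carry an AP-1 match at bases 34 and 217, and LRRK1 carries an AP-2 match at base 66. Such matches are common. Among the central 300 bases of all 30435 tested distal peaks, AP-1 letters were found in 19.0%, RUNX in 21.6%, TEAD in 18.6%, AP-2 in 7.28%, forkhead in 4.51%, GATA in 4.19% and POU in 1.97%.

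Across the 653 distal peaks higher in BrM2, the shares were 17.0% for AP-1, 23.1% for RUNX, 5.05% for forkhead, 4.13% for GATA and 2.76% for POU. The 442 distal peaks lower in BrM2 held AP-1 in 21.9%, RUNX in 25.8%, forkhead in 2.49%, GATA in 2.49% and POU in 1.58%. AP-2 letters were in 5.67% of the higher and 8.14% of the lower windows. These shares are descriptions of the letters and were not tested. Base composition moved with direction: the median GC content was 42.7% in windows higher in BrM2 and 46.3% in those lower, against 44.3% over all tested distal peaks. In the eighth of distal peaks with the least GC, 102 were higher and 28 lower in BrM2, and in the eighth with the most GC 48 were higher and 73 lower. The median log2 fold change of the eighths nevertheless stayed between -0.05 and 0.00. The part of base composition in the calls was not tested.

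To ask which elements separate the brain- from the lung-tropic cells, counts were tested peak by peak with the DESeq2 Wald test. Of the 62195 peaks, 46519 received an adjusted p and 15676 were left without one for low counts. At an adjusted p under 0.05, 1366 peaks differed, which is 2.94% of those tested, and 797 of them were higher (1.71% of those tested) and 569 lower (1.22%) in BrM2 than in LM2. A larger share of distal than of promoter peaks was called. Of 30435 tested distal peaks 1095 were called (3.6%), 653 higher (2.15%) and 442 lower (1.45%), while of 16084 tested promoter peaks 271 were called (1.68%), 144 higher (0.895%) and 127 lower (0.79%). Of distal peaks within 100 kb of a start 3.15% were called. Peaks over 100 kb from any protein-coding start were called in 5.33% of cases (335 of 6286). The plot of fold change against count shows these calls for both kinds of peak.

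**Figure D1:**
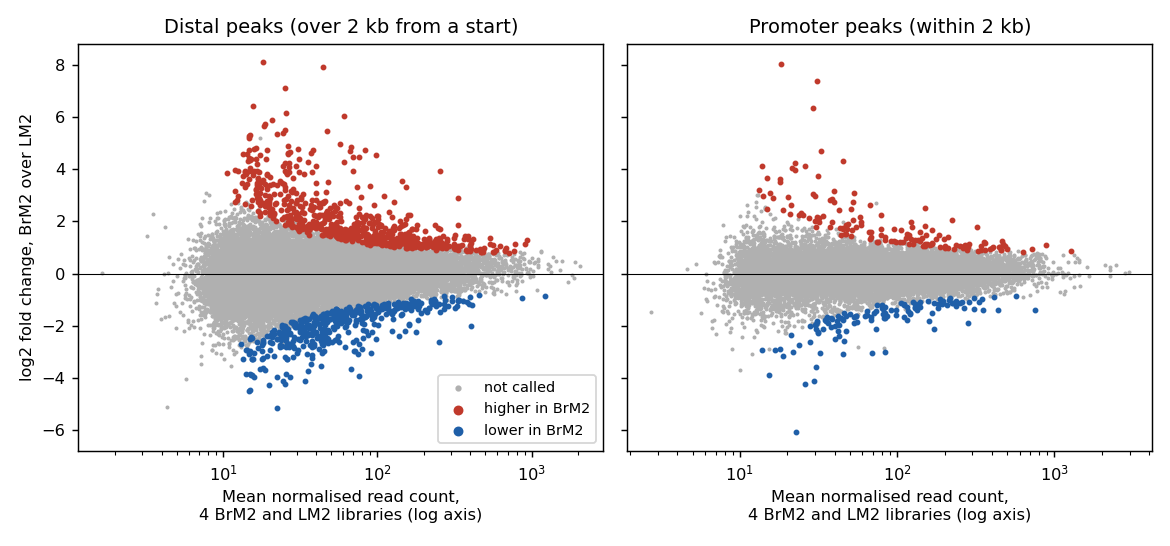
Each point is a tested H3K27ac peak, with its mean normalised read count in the 4 BrM2 and LM2 libraries on a log axis and its log2 fold change (BrM2 over LM2) on the vertical axis, for distal peaks on the left and promoter peaks on the right. Colored points are the 653 and 144 peaks called higher (red) and the 442 and 127 called lower (blue) in BrM2; the largest fold changes, up to 8.09, belong to peaks of low mean count.

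These counts depend on how replicates are treated. With the replicate number as a block, 2574 peaks were called (1523 higher and 1051 lower), of which 1858 were distal and 716 promoter peaks, and 1314 of the 1366 calls were among them. With 1 library left out at a time the calls fell to between 103 and 1053, with the fewest (103) without BrM2 replicate 1, when the shallow BrM2 replicate 2 stands alone and is assumed to vary like the other lines. Without BrM2 replicate 2, LM2 replicate 1 or LM2 replicate 2 the calls were 306, 222 and 378. The higher share of promoter calls turned with the scaling: 117 were higher and 163 lower with size factors from total counts. The replicates are separate samples by their titles. The p-values rest on the spread of 2 replicates per line, pooled over BrM2, LM2 and Par, and cover no variation beyond these libraries.

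Called elements were longer and less tied to promoters than tested peaks in general. Peaks higher and lower in BrM2 had a median length of 2776 and 3140 bp, against 2050 bp for all tested peaks, and 81.9% and 77.7% of them were distal, against 65.4%. An H3K4me3 peak overlapped 29.2% of the higher and 31.5% of the lower peaks, against 39.0% of those tested. The lines did not overlap in normalised count in 48.9% of all tested peaks, so a lack of overlap on its own says little with 2 libraries each. The called peaks also had higher median counts, of 63.2 and 54.6, against 40.3 for tested peaks.

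Nearest genes within 100 kb were counted next. Of 13964 genes with a tested peak, 802 (5.74%) had at least 1 called peak, 461 of them only higher, 337 only lower and 4 in both directions (3.33% with a higher and 2.44% with a lower peak). With the replicate block the number was 1527, and between 65 (without BrM2 replicate 1) and 633 with a library left out. A called distal peak was nearest to 616 of 8104 genes (7.6%), with 4.45% of genes having a higher and 3.18% a lower one. For 358 genes these distal peaks were only higher in BrM2, and 262 of those also had a tested promoter peak, which was higher in 35 genes (13.4%) and lower in 1. For 255 genes they were only lower, and of 215 with a tested promoter peak it was lower in 36 (16.7%) and higher in 0. Over all 12086 genes with a tested promoter peak, 1.15% had it higher and 0.985% lower. Distal and promoter peaks of a gene lie close together and share any regional shift, whose part was not tested.

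The level in Par was set beside those of both sub-populations. The comparisons with Par share the Par libraries with each other and the BrM2 and LM2 libraries with the main comparison, so that they are read side by side only. Among the 653 distal peaks higher in BrM2, the Par mean lay nearer to LM2 in 469 (71.8%), and BrM2 differed from Par in 354, LM2 in 75, with 1 peak in both of these counts and 225 in neither. For the 442 distal peaks lower in BrM2, Par lay nearer to LM2 in 221 and nearer to BrM2 in 221, with BrM2 differing from Par in 132, LM2 in 157 and neither in 153. Over all peaks BrM2 differed from Par in 5.29% and LM2 in 3.63% of those tested.

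Among distal elements within 100 kb of a start, whose counts averaged 50 or more and kept BrM2 and LM2 apart in every library, the largest log2 fold changes of BrM2 over LM2 lay near KIRREL3, BMP10, ZNF565, PIEZO2, DCTD, FFAR4, EPHB6 and SAMD12. The largest lies in an intron of KIRREL3, an immunoglobulin-superfamily adhesion molecule of synapses, 5890 bp from a start (chr11:126862307-126864526). Its normalised read counts were 96.5 and 127 in BrM2, 3.93 and 2.96 in LM2 and 6.97 and 5.01 in Par. BrM2 thus stood above all other libraries, with a log2 fold change over LM2 of 4.97 ± 0.63 (SE, adjusted p = 8.14e-12). From the summed counts the ratio was 29.9 (95% exact interval 15.8 to 63.5), which covers counting error only. A further element of this gene, 182.3 kb from the start, went from 5 and 1 raw reads in LM2 to 104 and 44 in BrM2.

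An intergenic element 24659 bp from PIEZO2, a mechanically gated ion channel of sensory neurons (chr18:11174227-11178238), was also highest in BrM2. Counts were 294 and 260.3 in BrM2, 28 and 27.6 in LM2 and 20.9 and 16 in Par, a log2 fold change of 3.32 ± 0.35 (SE, adjusted p = 7.65e-17). Its neighbours were also shifted upwards: peaks within 2.5 Mb with a mean count of at least 50 had a median log2 fold change of 0.50 over 66 peaks. 99035 bp from DCTD, which deaminates dCMP for thymidylate synthesis, an intergenic element (chr4:183734094-183737678) held 201 and 191 in BrM2, 24.7 and 24.6 in LM2 and 6.97 and 7.01 in Par. Here BrM2 exceeded LM2 (2.99 ± 0.38, adjusted p = 1.53e-11) and LM2 exceeded Par, by a log2 fold change of 1.82 (adjusted p = 0.0212). The promoter peak of DCTD with the highest count had a log2 fold change of BrM2 over LM2 of 0.01 (adjusted p = 0.997).

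At BMP10, which encodes a bone morphogenetic protein of the heart, the element, which is intergenic, had an intermediate parental level. Counts were 277 and 258 in BrM2 and 140.3 and 156 in Par, but 20.2 and 26.6 in LM2. The log2 fold change of BrM2 over LM2 was 3.54 ± 0.35 (SE, adjusted p = 4.41e-20), that of LM2 over Par was -2.69 (adjusted p = 1.76e-11) and that of BrM2 over Par was 0.85 (adjusted p = 0.0785). The zinc finger gene ZNF565 showed the same order of means at an exonic element (chr19:36672604-36675079), with 172 and 96.4 in BrM2, 13.5 and 13.8 in LM2 and 98.4 and 84.1 in Par (3.32 ± 0.44, adjusted p = 1.34e-10).

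EPHB6, a kinase-inactive ephrin receptor, was nearest to an intergenic element with 225 and 222 counts in BrM2 and 27.5 and 41.4 in LM2 (chr7:142502465-142512156). Par stood highest, with 295 and 266. The log2 fold change of BrM2 over LM2 was 2.73 ± 0.33 (SE, adjusted p = 9.05e-13). Neighbouring peaks had a median log2 fold change of -0.13 over 20 peaks at EPHB6. Medians were 0.49 over 54 at BMP10, 0.49 over 56 at FFAR4 and 0.58 over 55 at SAMD12. Near FFAR4, a receptor for long-chain fatty acids, the counts were 106 and 112 in BrM2, 14.6 and 17.7 in LM2 and 49.7 and 29 in Par, Par in between (2.77 ± 0.45, adjusted p = 7.23e-07). The element nearest to SAMD12 held 122 and 77.1 in BrM2, 15.1 and 15.8 in LM2 and 9.58 and 6.01 in Par (2.71 ± 0.49, adjusted p = 1.29e-05), and lost its call without BrM2 replicate 1 (log2 fold change 2.32, adjusted p = 0.251).

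The largest differences in the other direction lay near DLEU7, INPP5D, AHNAK, LRRK1, CLDN23, PRAG1, PTPRG and SPRY4. In an intron of DLEU7 (chr13:51329441-51333477), counts were 139.7 and 148 in LM2 but 11.7 and 5.78 in BrM2 and 8.71 and 14 in Par, a log2 fold change of -3.93 ± 0.54 (SE, adjusted p = 8.21e-10) for BrM2 over LM2. INPP5D, the inositol phosphatase SHIP1 of blood cells, held an intronic element (chr2:233948472-233952017) with 175 and 74.9 in LM2, 7.8 and 13.5 in BrM2 and 15.7 and 8.01 in Par (-3.64 ± 0.60, adjusted p = 1.21e-06). Replicate 1 held the higher of the LM2 values, and without LM2 replicate 1 the log2 fold change was -2.88 with an adjusted p of 0.0799. An intronic element of AHNAK, a large scaffold protein, had 136 and 115 in LM2, 16.6 and 15.4 in BrM2 and 7.84 and 20.0 in Par (-2.97 ± 0.50, adjusted p = 2.56e-06).

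SPRY4, an inhibitor of signaling from receptor tyrosine kinases to MAP kinase, was nearest to an intergenic element 95613 bp away (chr5:141801633-141809178). LM2 held 221 and 245 there, BrM2 42.9 and 46.3 and Par 46.2 and 53.1. LM2 stood above both other lines, with a log2 fold change of -2.39 ± 0.35 (SE, adjusted p = 1.93e-08) for BrM2 over LM2 and of 2.23 (adjusted p = 1.64e-08) for LM2 over Par. PTPRG, a receptor tyrosine phosphatase, had an intronic element with 80.8 and 106 in LM2, 15.6 and 17.4 in BrM2 and 21.8 and 22 in Par (-2.51 ± 0.49, adjusted p = 0.000107). Its call was lost without BrM2 replicate 1 (-2.42, adjusted p = 0.153) or LM2 replicate 2 (-2.31, adjusted p = 0.0688).

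LRRK1, a leucine-rich repeat kinase, was nearest to an element with 102 and 178 in LM2, 45.3 and 49.1 in Par and 21.4 and 15.4 in BrM2 (chr15:101627642-101633149), so that Par fell between the sub-populations (-2.88 ± 0.47, adjusted p = 7.93e-07). Peaks around it were lower as well, with a median log2 fold change of -0.98 over 52 neighbours. At PRAG1 and CLDN23, both on chromosome 8, Par stood above LM2 instead. PRAG1, a pseudokinase scaffold, was nearest to an element with 78 and 61.7 in BrM2, against 442 and 428 in LM2 and 576 and 568 in Par (-2.62 ± 0.29, adjusted p = 2.14e-15). CLDN23, a claudin, had 18.5 and 11.6 in BrM2, 92.6 and 104 in LM2 and 159 and 170.3 in Par (-2.63 ± 0.44, adjusted p = 2.08e-06). Neighbouring peaks had medians of -1.40 over 25 and -1.38 over 26 peaks, and with the median of each 5 Mb window removed the CLDN23 value was -1.16 (adjusted p = 0.245). The promoter peaks of highest count of PRAG1 (-3.07, adjusted p = 7.57e-06) and CLDN23 (-1.86, adjusted p = 0.0184) were lower too. Those of AHNAK (-0.05, adjusted p = 0.975), PTPRG (-0.10, adjusted p = 0.944) and SPRY4 (-0.09, adjusted p = 0.954) were not called. Neither were those of DLEU7 (-0.95), INPP5D (-0.80) and LRRK1 (-1.07), at adjusted p from 0.137 to 0.366.

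**Figure D2:**
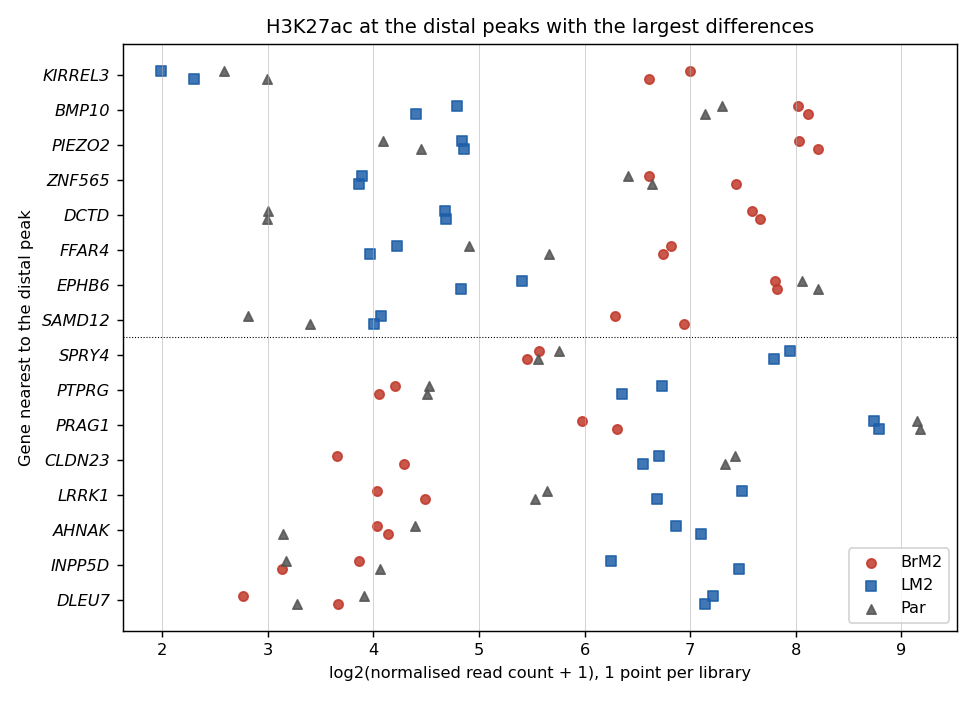
Each point is 1 library at a distal H3K27ac peak, placed by log2(normalised read count + 1), for the 8 peaks with the largest fold changes in each direction (above and below the dotted line), named by the gene with the nearest start. Circles are BrM2, squares LM2 and triangles Par; at each peak the BrM2 and LM2 libraries do not overlap, which was a condition for naming, while Par overlaps BrM2 at SPRY4, lies above LM2 at PRAG1 and lies between the lines at LRRK1.

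Some genes were nearest to several called distal elements, often with peaks that were not called between them. At least 3, all in 1 direction, were nearest to 28 of 8104 genes (0.346%), 16 with higher and 12 with lower signal in BrM2. KIRREL3 had 4 called among 5 tested, with log2 fold changes between 3.48 and 4.97. Summed over the 4 called peaks, normalised counts were 230.1 and 229 in BrM2, 11.8 and 8.87 in LM2 and 13.1 and 10.0 in Par. NPAS2, a transcription factor of the circadian clock, had 5 called of 15 tested, all 15 of positive sign, over 175 kb of chromosome 2. The called sums were 1416 and 1642 in BrM2, 597 and 690.0 in LM2 and 695 and 934 in Par. The NPAS2 peak of smallest adjusted p had a log2 fold change of 1.44 ± 0.28 (SE, adjusted p = 0.000101), and 0.72 (adjusted p = 0.169) with window medians removed.

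FRMD4A, a scaffold of cell polarity, had 5 called of 47 tested, and 37 of the 47 were of positive sign. Sums of its called peaks were 2185 and 2134 in BrM2, 1049 and 1027 in LM2 and 1315 and 1226 in Par. Its peak of smallest adjusted p, at 1.14 ± 0.25, lost its call without any 1 of the 4 BrM2 and LM2 libraries (adjusted p from 0.0692 to 0.143), and was at 0.64 (adjusted p = 0.189) with window medians removed. ATRNL1 had 4 called of 6 tested (log2 fold changes 1.70 to 2.50) and GSDMC, a gasdermin, 4 of 4 (1.31 to 1.81). EXT1, a glycosyltransferase of heparan sulfate, had 4 of 41 (0.85 to 1.43). Neighbours of the peak of smallest adjusted p had medians of 0.56 over 24 peaks at ATRNL1, 0.49 over 61 at GSDMC and 0.58 over 55 at EXT1. At GSDMC the sums were 1244 and 1108 in BrM2, 424 and 394 in LM2 and 844 and 828 in Par, so that Par lay in between. The EXT1 peak of smallest adjusted p lost its call without BrM2 replicate 1 (1.34, adjusted p = 0.175) or LM2 replicate 2 (1.34, adjusted p = 0.0508), and that of NPAS2 without BrM2 replicate 2 (1.34, adjusted p = 0.0515).

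Among genes with lower elements, PRAG1 had 7 called of 10 tested and LRLE1 6 of 7, with all tested peaks of negative sign. Sums over the called PRAG1 peaks were 159 and 122 in BrM2, 1032 and 822 in LM2 and 1141 and 1071 in Par. SLCO3A1, an organic anion transporter, had 4 of 6 called (-2.21 to -1.87). Its sums were 129.7 and 133 in BrM2, 582 and 512 in LM2 and 409 and 373 in Par. Neighbours of its peak of smallest adjusted p were lower as well, with a median log2 fold change of -1.03 over 51 peaks. DLEU7 had 3 of 10 called and sums of 62.4 and 59.8 in BrM2, 289.5 and 334 in LM2 and 99.3 and 119 in Par. CLDN23 had 3 of 5 and SORCS2, a sorting receptor of neurons, 3 of 10. The SORCS2 peak of smallest adjusted p held 18.5 and 28.9 in BrM2, 114 and 98.6 in LM2 and 68.8 and 96.2 in Par (-2.22 ± 0.44, adjusted p = 0.000113), and lost its call without BrM2 replicate 1 (-1.88, adjusted p = 0.229) or LM2 replicate 1 (-2.11, adjusted p = 0.0618). The LRLE1 peak of smallest adjusted p, at -2.92, lost it without BrM2 replicate 1 (-2.81, adjusted p = 0.228) and with window medians removed (-1.45, adjusted p = 0.311).

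**Figure D3:**
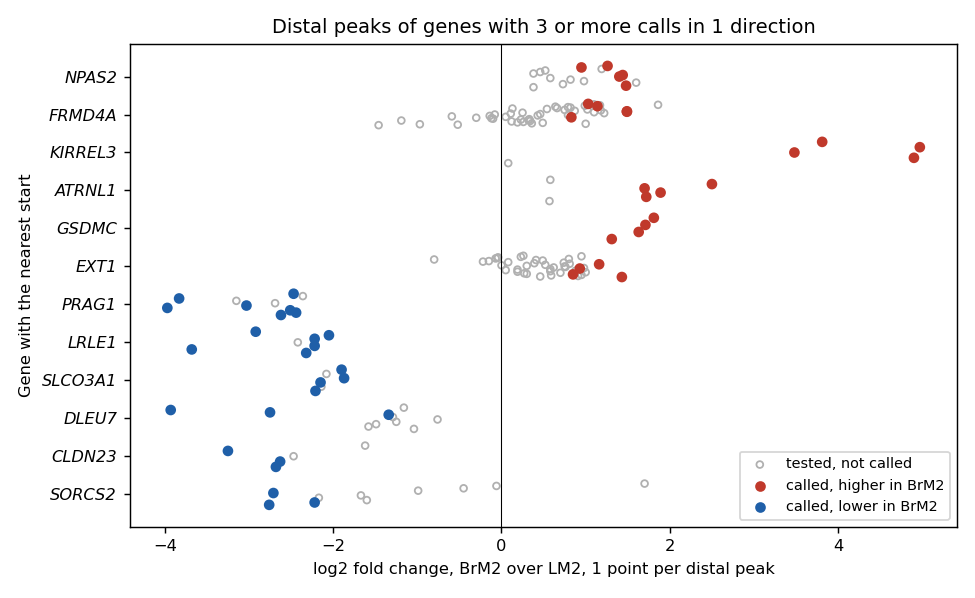
Each point is a tested distal H3K27ac peak, placed by its log2 fold change (BrM2 over LM2), for the 6 genes with most called higher and the 6 with most called lower peaks; filled points are called and open points are not. All 5 peaks of KIRREL3 and all 10 of PRAG1 lie on 1 side of 0, while the 47 peaks of FRMD4A reach from below 0 to 1.49 among those called.

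Calls of 1 direction also ran across genes, in stretches that were chosen after values were seen. There were 11 with at least 5 calls of 1 direction, gaps of at most 100 kb from call to call and no call of the other direction between them, 6 lower and 5 higher in BrM2. Most also held peaks that were not called. The series with most calls, 14 lower of 23 peaks, covered 208 kb around LRLE1 and PRAG1, and the called peaks had summed counts of 216 and 193 in BrM2, 1399.7 and 1194 in LM2 and 1635 and 1631 in Par. On chromosome 9, 11 of 35 peaks were lower around IER5L, NTMT1 and PTGES, a prostaglandin E synthase, over 382 kb. Their sums were 1613 and 1762 in BrM2, 3758 and 3958 in LM2 and 2832 and 3608 in Par. On chromosome 15, 7 lower of 17 peaks around KIF7, MESP1, ANPEP (aminopeptidase N) and AP3S2 summed to 766 and 827 in BrM2, 2069 and 1845 in LM2 and 1032 and 1116 in Par.

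Of the higher stretches, 6 called of 19 peaks around ARHGAP25 and BMP10 on chromosome 2 summed to 1505 and 1411 in BrM2, 419.6 and 439 in LM2 and 774 and 898 in Par. On chromosome 1, 5 called of 8 peaks lay at SLAMF1, SLAMF7 and CD244, receptors of lymphocytes, with log2 fold changes of 1.97 to 3.56. Their sums were 389 and 364 in BrM2, 75.7 and 84.8 in LM2 and 189 and 123 in Par. Far from protein-coding starts on chromosome 21, 5 of 6 peaks over 96.2 kb were called with log2 fold changes of 3.91 to 5.75. ADAMTS5, an aggrecan-cleaving protease, has the nearest start, at least 363 kb away. Sums were 292 and 266 in BrM2, 10.7 and 10.8 in LM2 and 11.3 and 11 in Par, so that this group of elements held few reads outside BrM2.

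Chromosomes differed in the balance of calls. Chromosome 18 had 50 higher and 1 lower, chromosome 21 had 30 and 0, and chromosome 2 had 110 and 14. Chromosome 15 had 11 higher and 72 lower, chromosome 13 had 8 and 42, and chromosome 9 had 7 and 55. The median log2 fold change of peaks with a mean count of at least 50 was 0.49 on chromosome 18, 0.32 on chromosome 2 and 0.15 on chromosome 21, and -0.23 on chromosome 15, -0.41 on chromosome 9 and -0.46 on chromosome 13. It did not follow the balance everywhere, since chromosome 8 had 42 higher and 74 lower calls at a median of 0.09 and chromosome 11 had 50 and 18 at -0.05. With chromosome medians removed, 1142 peaks were called (610 higher and 532 lower), and with 5 Mb window medians removed 855 (493 and 362), of which 985 and 700 were among the 1366.

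**Figure D4:**
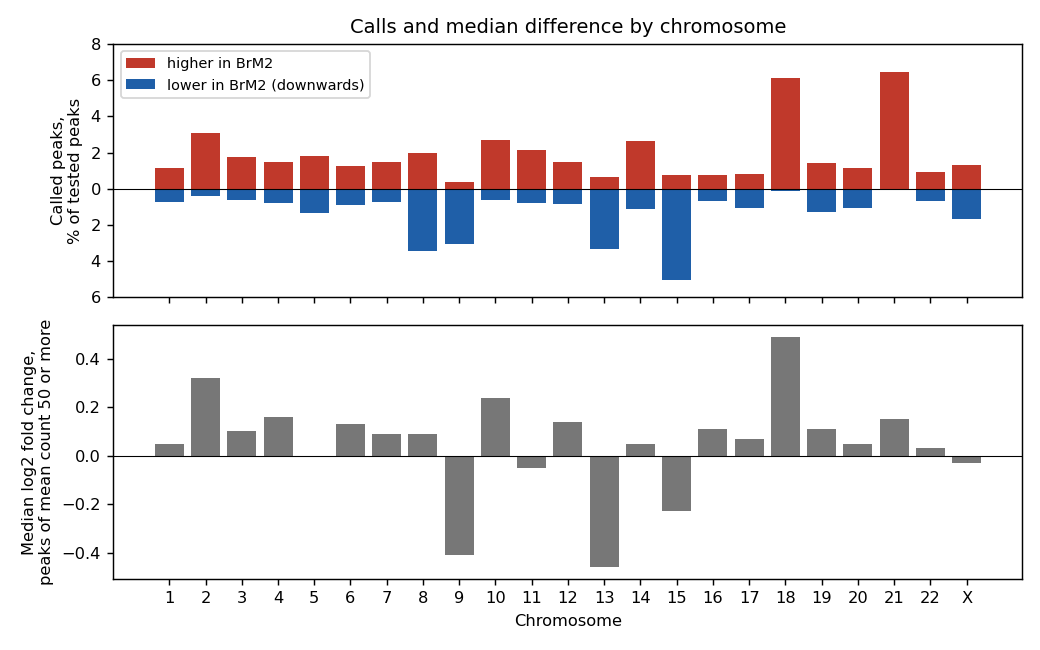
The upper panel gives the called H3K27ac peaks of each chromosome as a percentage of its tested peaks, higher in BrM2 upwards and lower in BrM2 downwards, and the lower panel the median log2 fold change (BrM2 over LM2) of peaks with a mean normalised count of at least 50. Chromosome 21 has the largest share of higher calls (6.44%), at a median of 0.15, and chromosome 15 the largest share of lower calls (5.04%), at a median of -0.23.

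Elements with next to no reads in 1 line were chosen for description after their values were seen. Of the called peaks, 21 had a log2 fold change of 5 or more in size, 19 higher and 2 lower in BrM2. Raw counts are given for these, since 1 read changes the ratio. The promoter peak of EPB41L3, a membrane-cytoskeleton linker, had 22 and 27 reads in BrM2, 0 and 0 in LM2 and 1 and 2 in Par, at least 15.8-fold higher in BrM2 when LM2 is set to 3 reads per library. The promoter peak of NRK, a kinase gene on the X chromosome, had 54 and 36 in BrM2, 0 and 1 in LM2 and 3 and 2 in Par, a ratio of 163.0 (95% exact interval 28.5 to 6509.0). An intergenic element 369.5 kb from LRATD1 had 92 and 45 in BrM2 and 0 and 1 in LM2, and an intronic element of SNTG2, a syntrophin of the brain, 54 and 25 in BrM2 and 1 and 0 in LM2.

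In all 19 such elements Par was also low, at 7 reads or fewer per library. They fell on 10 chromosomes, with 5 on chromosome 21 and 4 on chromosome 18. In the other direction, IRX2, an Iroquois homeobox transcription factor, had 54 and 60 reads in LM2, 1 and 0 in BrM2 and 8 and 6 in Par at its promoter peak, and an intronic element of SUCLA2 had 99 and 33 in LM2, 2 and 0 in BrM2 and 2 and 1 in Par. For IRX2 the ratio of LM2 over BrM2 was 62.9 (95% exact interval 11.1 to 2507.6).

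Promoter peaks with the largest differences, by the same rule, were read next. ADAMTS1, a secreted metalloprotease that cleaves matrix proteoglycans, had 103 and 84.8 normalised counts in BrM2, 5.61 and 17.7 in LM2 and 13.9 and 13 in Par at its start (chr21:28215554-28218517), a log2 fold change of 3.11 ± 0.54 (SE, adjusted p = 5.3e-06). NTNG1, the axon guidance protein netrin G1, had 85.8 and 96.4 in BrM2, 14.6 and 11.8 in LM2 and 36.6 and 19 in Par (2.76 ± 0.49, adjusted p = 8.94e-06). FAT3, an atypical cadherin of neurons, had 119.9 and 112 in BrM2, 19.1 and 18.7 in LM2 and 28.7 and 16 in Par (2.62 ± 0.44, adjusted p = 2.19e-06). In each, BrM2 stood above the other lines. The ADAMTS1 call was lost without BrM2 replicate 1 (2.92, adjusted p = 0.0851).

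In the other direction, a promoter peak of LRMDA, a gene of melanocyte differentiation, had 124 and 120.2 in LM2, 10.7 and 21.2 in BrM2 and 9.58 and 10.0 in Par (-3.03 ± 0.50, adjusted p = 9.47e-07). One of UBAC2 had 149.8 and 149 in LM2, 19.5 and 17.4 in BrM2 and 22.7 and 23 in Par (-3.00 ± 0.44, adjusted p = 1.93e-08), although the promoter peak of UBAC2 with the highest count had a log2 fold change of only 0.04 (adjusted p = 0.988). SIRPB1, a receptor of myeloid cells, had 245 and 314 in LM2, 60.4 and 67.5 in BrM2 and 34.8 and 40.1 in Par (-2.13 ± 0.34, adjusted p = 3.37e-07). All 3 were high in LM2 alone. LRMDA lost its call without BrM2 replicate 1 (-2.53, adjusted p = 0.0588).

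H3K4me3 was measured in separate libraries of the same lines, and its values did not enter the rules that chose these peaks. The gene lists, however, were made with earlier results of these data known. Among them is CDH18, where the paper had shown promoter H3K4me3 gained in BrM2, so that the choice was not fully independent of H3K4me3. Of 65 named H3K27ac peaks, 27 overlapped an H3K4me3 peak, and 9 of those differed between BrM2 and LM2, 8 higher and 1 lower, each in the direction of H3K27ac. With the replicate block 18 of the 27 did, and between 5 (without BrM2 replicate 2) and 8 with an H3K4me3 library left out. In the fit by line without a block, 3.18% of all H3K4me3 peaks were called, and 2.28% of those under tested H3K27ac peaks. These shares are no background for the counts with the replicate block or a library left out, for which none was taken. At the DCTD element H3K4me3 counts were 291 and 362 in BrM2 and 4.57 and 7.41 in LM2, a log2 fold change of 5.66 ± 0.54 (SE, adjusted p = 6.98e-22). FAT3 (3.52 ± 0.61, adjusted p = 1.42e-06) and ADAMTS1 (2.28 ± 0.35, adjusted p = 2.41e-08) rose at H3K4me3 too, and LRMDA fell (-3.23 ± 0.43, adjusted p = 2.58e-11). At KIRREL3 the H3K4me3 value was 3.09 ± 1.35 (SE, adjusted p = 0.297) and at DLEU7 -5.01 ± 1.75 (SE, adjusted p = 0.102), neither past the threshold. With the replicate block DLEU7 passed it (-4.99, adjusted p = 0.0184) and KIRREL3 did not (3.22, adjusted p = 0.0708).

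Other names follow from lists of genes. Lists of genes with roles in organ colonization, neural contact, matrix and signaling were read against the background that 5.74% of genes and 2.56% of peaks within 100 kb were called. No list was tested, and lists of genes with many peaks have more chances of a call. Among cadherins and neural adhesion genes, 6 of 42 tested members (14.3%) had a called peak, all higher in BrM2, and 4.96% of the 141 peaks were called. The median log2 fold change of these peaks was 0.08, against 0.02 for all peaks within 100 kb. DSCAM, a homophilic adhesion molecule of neurons, had 51.7 and 54 in BrM2, 5.05 and 8.87 in LM2 and 0.871 and 2 in Par near a start (2.97 ± 0.64, adjusted p = 0.000604). NCAM2, a neural cell adhesion molecule, had 35.1 and 21.2 in BrM2, 2.24 and 0.986 in LM2 and 6.1 and 11 in Par in an intron, and the ratio from its summed counts was 17.0 (95% exact interval 6.8 to 54.9).

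Both DSCAM and NCAM2 lie on chromosome 21. CDH18, a neuronal cadherin, had 13.6 and 38.6 in BrM2, 1.12 and 1.97 in LM2 and 2.61 and 3 in Par at a promoter peak, a ratio of 15.4 (95% exact interval 5.49 to 59.7). CDH20 had 374 and 347 in BrM2, 149 and 185 in LM2 and 166 and 171 in Par at an intergenic element of chromosome 18 (1.12 ± 0.28, adjusted p = 0.00577). The CDH20 value was 0.67 (adjusted p = 0.232) with chromosome medians removed and 0.35 (adjusted p = 0.868) with window medians removed. CDH11 (1.52 ± 0.42) and NEGR1 (1.11 ± 0.28) were the other called members. Under H3K4me3, DSCAM (2.29 ± 0.43, adjusted p = 1.91e-05), CDH18 (4.98 ± 1.05, adjusted p = 0.00023) and CDH20 (4.56 ± 0.62, adjusted p = 9.69e-11) were higher in BrM2. With 1 library left out the H3K27ac log2 fold changes were 2.56 to 3.38 for DSCAM, 3.64 to 4.85 for NCAM2, 3.20 to 4.71 for CDH18 and 0.95 to 1.27 for CDH20. Among the 4 BrM2 and LM2 libraries the call was lost without 3 of them for DSCAM and NCAM2, without 4 for CDH20 and without 2 for CDH18, which had no adjusted p without the other 2, with the replicate block or with TMM size factors.

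Of 54 tested synapse genes 4 (7.41%) had a called peak, all higher in BrM2, with 2.31% of 173 peaks called. SYT6, a synaptotagmin, had 61.4 and 92.5 in BrM2, 6.73 and 16.8 in LM2 and 2.61 and 5.01 in Par at an intronic element (2.76 ± 0.57, adjusted p = 0.000279). DLG2, a scaffold of the postsynaptic density, had 26.3 and 42.4 in BrM2, 6.17 and 4.93 in LM2 and 4.36 and 7.01 in Par (2.59 ± 0.72, adjusted p = 0.0173). The promoter peak of DLG2 with the highest count was at -0.37 (adjusted p = 0.829). RIMS2, which acts in the release of synaptic vesicles, had 28.3 and 19.3 in BrM2, 1.68 and 3.94 in LM2 and 1.74 and 2 in Par at an internal start, a ratio of 10.1 (95% exact interval 4.46 to 26.7). GRIK5, a kainate receptor subunit, had 25.3 and 38.6 in BrM2, 3.93 and 6.9 in LM2 and 1.74 and 1 in Par (2.59 ± 0.77, adjusted p = 0.0312). At each of these called peaks BrM2 lay above both other lines. With 1 BrM2 or LM2 library left out, the adjusted p rose above 0.05 in 3 of 4 cases for SYT6 (0.0699 to 0.249) and in 4 of 4 for DLG2 (0.266 to 0.586), while the low counts of RIMS2 gave no adjusted p in any of the 4, nor with the replicate block, TMM or total-count size factors, and those of GRIK5 gave none in 2 and 0.182 and 0.532 in the others. For RIMS2 and GRIK5 the call was also lost without either Par library (0.0509 to 0.059), and for GRIK5 with chromosome (2.48, 0.0509) or window medians removed (2.32, 0.103).

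Axon guidance genes were called in both directions. Of 66 tested 7 (10.6%) had a called peak, and 2.56% of 273 peaks were called. EPHB6 and NTNG1, described above, were higher in BrM2 together with ROBO2, a Slit receptor, and SEMA6D, a transmembrane semaphorin. ROBO2 had 68.2 and 63.6 in BrM2, 11.2 and 6.9 in LM2 and 8.71 and 8.01 in Par (2.82 ± 0.56, adjusted p = 0.000107). SEMA6D had 66.3 and 86.8 in BrM2, 18.5 and 28.6 in LM2 and 30.5 and 30.0 in Par (1.71 ± 0.46, adjusted p = 0.011). The ephrin EFNA5 (-2.93 ± 0.82) and the semaphorins SEMA5A (-2.41 ± 0.65) and SEMA4B (-1.16 ± 0.35) had lower elements in BrM2. Without BrM2 replicate 1 the calls of ROBO2 (2.79, adjusted p = 0.17) and SEMA6D (1.90, adjusted p = 0.316) were lost, and SEMA6D also lost it without BrM2 replicate 2 (1.52, adjusted p = 0.446), LM2 replicate 1 (1.40, adjusted p = 0.464) or LM2 replicate 2 (2.03, adjusted p = 0.0681).

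Extracellular proteases and their inhibitors had 9 of 56 tested members called (16.1%), 4 higher and 5 lower, with 5.21% of 211 peaks called. Besides ADAMTS1, an element at ADAMTS12 held 205 and 183 in BrM2, 37.6 and 63.1 in LM2 and 153 and 147 in Par (1.98 ± 0.35, adjusted p = 7.57e-06), with LM2 the low line. ADAMTS15 showed the opposite, with 155 and 147 in LM2, 29.2 and 36.6 in BrM2 and 34 and 66.1 in Par (-2.22 ± 0.42, adjusted p = 5.74e-05). The ADAMTS12 element lies at a start. Promoter peaks of highest count were at 0.43 (adjusted p = 0.407) for ADAMTS12 and 0.50 (adjusted p = 0.619) for ADAMTS15, neither called. Cathepsin B (CTSB) had 106 and 65.5 in BrM2, 278 and 215 in LM2 and 262 and 204 in Par at its start (-1.49 ± 0.34, adjusted p = 0.00136). Its value was -0.46 (adjusted p = 0.809) with 5 Mb window medians removed. It was -1.21 (adjusted p = 0.194) without BrM2 replicate 2 and -1.31 (adjusted p = 0.201) without LM2 replicate 1, and ADAMTS15 was -2.04 (adjusted p = 0.126) without BrM2 replicate 1. The protease inhibitors TIMP3 (-2.22 ± 0.62) and SERPINE2 (-2.37 ± 0.72) had lower elements in BrM2.

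Extracellular matrix genes had 7 of 75 members called (9.33%), 4 higher and 3 lower. Of their 373 peaks 2.68% were called, and the median log2 fold change of these peaks was -0.20. The element of COL8A1, a short-chain collagen of vessel walls, had 156 and 135 in BrM2, 32.5 and 47.3 in LM2 and 34.8 and 39.1 in Par (1.89 ± 0.38, adjusted p = 0.000153). COL4A1, a basement membrane collagen, had 64.3 and 48.2 in BrM2, 159 and 128 in LM2 and 111 and 107 in Par (-1.33 ± 0.36, adjusted p = 0.0115), and the fibrillar collagen COL5A1 88.7 and 88.7 in BrM2, 179.5 and 198 in LM2 and 199.5 and 229 in Par (-1.09 ± 0.31, adjusted p = 0.0219). TNXB, a tenascin, was higher, at 1.12 ± 0.32. With chromosome medians removed COL4A1 (-0.90, adjusted p = 0.205), COL5A1 (-0.67, adjusted p = 0.319) and TNXB (0.99, adjusted p = 0.0634) were not called. These 3 also lost their calls without any 1 of the 4 BrM2 and LM2 libraries, COL5A1 also without Par replicate 1 (adjusted p = 0.0508), and COL8A1 without BrM2 replicate 1 (1.77, adjusted p = 0.208) or LM2 replicate 1 (1.62, adjusted p = 0.129).

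Of 39 tested genes of vascular growth 5 (12.8%) were called, with 3.14% of 223 peaks. EDN1, the vasoconstrictor endothelin 1, had 182 and 175 in BrM2, 56.1 and 84.8 in LM2 and 207 and 193 in Par (1.36 ± 0.33, adjusted p = 0.00309), and CCBE1, a factor of lymphatic growth, 29.2 and 19.3 in BrM2, 1.68 and 2.96 in LM2 and 6.1 and 8.01 in Par, a ratio of 12.1 (95% exact interval 5.09 to 34.8). Higher in LM2 were the elements of EMP2, an epithelial membrane protein, with 63.4 and 48.3 in LM2, 2.92 and 7.71 in BrM2 and 5.23 and 10.0 in Par, and of ANGPT2, a ligand of the endothelial receptor TIE2, with 49.9 and 60.1 in LM2, 12.7 and 11.6 in BrM2 and 30.5 and 25 in Par (-2.16 ± 0.56, adjusted p = 0.00744). For EMP2 the ratio of LM2 over BrM2 was 12.8 (95% exact interval 6.06 to 32.3). This EMP2 peak lies at a start, but the promoter peak of EMP2 with the highest count was at -0.12 (adjusted p = 0.963). That of ANGPT2 was at -1.09 (adjusted p = 0.0317). ANGPT2 lies on the lower region of chromosome 8 and was at -0.69 (adjusted p = 0.865) with window medians removed. The sphingosine phosphate receptor S1PR1 (-1.31 ± 0.41) was also lower in BrM2. EMP2 lost its call without BrM2 replicate 1 (-2.86, adjusted p = 0.36) or LM2 replicate 1 (-3.31, adjusted p = 0.151), EDN1 without 3 and ANGPT2 without any of the 4 BrM2 and LM2 libraries. CCBE1 lost it without BrM2 replicate 2 (3.72, adjusted p = 0.13) or LM2 replicate 2 (3.86, adjusted p = 0.114), and had no adjusted p without either of the others or with the replicate block. With window medians removed it was at 2.71 (adjusted p = 0.132).

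Transcription factors of families named in the study had 14 of 95 members called (14.7%), 9 higher and 5 lower, with 3.43% of 525 peaks. GATA6, a zinc finger factor of endoderm and heart, had 62.4 and 32.8 in BrM2, 2.8 and 3.94 in LM2 and 43.6 and 42.1 in Par at an element 2987 bp from a start (3.90 ± 0.69, adjusted p = 7.95e-06). LM2 differed from Par by -3.71 (adjusted p = 1.32e-05) on the log2 scale, and Par overlapped BrM2. The promoter peak of GATA6 with the highest count was at 0.78 (adjusted p = 0.181) for BrM2 over LM2 and was not called. TFAP2B had 25.3 and 59.8 in BrM2, 1.68 and 2.96 in LM2 and 7.84 and 6.01 in Par at a promoter peak, a ratio of 17.2 (95% exact interval 7.44 to 48.8), whereas its relative TFAP2C, also an AP-2 factor, had a lower element in BrM2 (-2.01 ± 0.54). FOXL1, a forkhead factor, had 223 and 260.3 in BrM2, 65.1 and 94.6 in LM2 and 54.9 and 38.1 in Par (1.61 ± 0.34, adjusted p = 0.000482), and H3K4me3 there was higher too (4.27 ± 1.10, adjusted p = 0.00558).

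GRHL2, an epithelial factor, had 548 and 569 in BrM2, 254 and 239.5 in LM2 and 347 and 469.8 in Par (1.18 ± 0.27, adjusted p = 0.00175). EHF (1.29 ± 0.31), FOSL2 (1.51 ± 0.44), KLF6 (0.89 ± 0.26), KLF2 (0.88 ± 0.27) and SMAD6 were the other higher members. The ETS factors ETV4 (-2.05 ± 0.58) and FLI1 (-2.0 ± 0.60), with RFX2 (-1.99 ± 0.51) and BATF3 (-1.56 ± 0.48), were lower. EHF (adjusted p = 0.00354) is an ETS factor as well, so that this family was called in both directions. The adjusted p was 0.0226 for ETV4 and 0.0345 for FLI1. Calls of members given here without counts, apart from SMAD6, were not checked with libraries left out. GATA6 was at 3.33 (adjusted p = 0.0732) without BrM2 replicate 1, TFAP2B was at 3.81 (adjusted p = 0.11) without LM2 replicate 1 and without an adjusted p when BrM2 replicate 2 was left out. FOXL1 lost its call without BrM2 replicate 1 or 2 or LM2 replicate 1, and GRHL2 without any 1 of the 4 BrM2 and LM2 libraries, at log2 fold changes of 1.13 to 1.21, or with window medians removed (0.88, adjusted p = 0.0523).

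In the TGF-beta pathway 8 of 56 members were called (14.3%), 6 higher and 2 lower, with 3.08% of 292 peaks. INHBB, an activin subunit, had 174 and 245 in BrM2, 62.8 and 73.9 in LM2 and 38.3 and 56.1 in Par at a promoter peak (1.61 ± 0.35, adjusted p = 0.000791). BMP4, a ligand, had 145 and 160.0 in BrM2, 55 and 53.2 in LM2 and 65.3 and 59.1 in Par (1.49 ± 0.34, adjusted p = 0.00176), and SMAD6, an intracellular inhibitor of BMP signaling, 33.1 and 36.6 in BrM2, 5.05 and 4.93 in LM2 and 5.23 and 4.01 in Par (2.80 ± 0.72, adjusted p = 0.00748). LTBP1, which holds latent TGF-beta in the matrix, had 73.1 and 79 in BrM2, 21.9 and 11.8 in LM2 and 13.9 and 12 in Par (2.13 ± 0.50, adjusted p = 0.00201). At these 4 peaks BrM2 stood apart from the other lines. The promoter peaks of highest count of BMP4 (0.05, adjusted p = 0.976), SMAD6 (-0.12, adjusted p = 0.944) and LTBP1 (-0.09, adjusted p = 0.971) were not called. The receptor TGFBR2 (1.13 ± 0.31) and the activin antagonist FST (1.51 ± 0.45) were higher, while the ligands TGFB2 (-2.05 ± 0.61) and BMP5 (-1.5 ± 0.46) had lower elements. With a BrM2 or LM2 library left out, INHBB and LTBP1 lost their calls in 3 and BMP4 and SMAD6 in 4 of 4 cases.

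LTBP1 also counts among the genes tied to lung and to brain colonization, of which 2 of 17 (11.8%) and 2 of 18 (11.1%) were called. Over all genes with a tested peak within 100 kb the share was 5.74%. Of the peaks of these lists, 2.0% of 100 and 2.44% of 82 were called, against 2.56% of all peaks within 100 kb. Both colonization lists were drawn from work on these lines and, like the other lists, are no independent evidence of direction. PELI1 was the other brain gene, with 129.7 and 94.5 in BrM2, 32 and 35.5 in LM2 and 51.4 and 52.1 in Par (1.75 ± 0.39, adjusted p = 0.00106), and VCAM1, a vascular adhesion molecule, the other lung gene. VCAM1 had 110.0 and 108 in LM2, 100.2 and 106 in Par and 46.8 and 42.4 in BrM2 (-1.28 ± 0.37, adjusted p = 0.023), so that BrM2 was the low line. Its call was lost without any 1 of the 6 libraries (adjusted p from 0.0563 to 0.525), and that of PELI1 without BrM2 replicate 1 (1.49, adjusted p = 0.477), LM2 replicate 1 (1.66, adjusted p = 0.162) or LM2 replicate 2 (1.82, adjusted p = 0.0502) and with window medians removed (1.19, adjusted p = 0.096).

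Of 32 inhibitors of MAP kinase signaling 2 (6.25%) were called, with 0.966% of 207 peaks. SPRY4 was lower and NF1, a RAS GTPase activator, higher in BrM2. The called NF1 peak lies at a start, but the promoter peak of NF1 with the highest count was at 0.75 (adjusted p = 0.152). At NF1 the counts were 261 and 282 in BrM2, 110.0 and 80.8 in LM2 and 186 and 188 in Par (1.5 ± 0.30, adjusted p = 0.000172), and without BrM2 replicate 1 the log2 fold change was 1.56 (adjusted p = 0.0654), and without LM2 replicate 2 it was 1.30 (adjusted p = 0.0617). Of 28 cytokines and chemokines 1 (3.57%) was called, with 1.08% of 93 peaks. The called gene was IL12A, with 43.2 and 43.4 in LM2, 12.7 and 5.78 in BrM2 and 31.4 and 22 in Par (-2.13 ± 0.61, adjusted p = 0.0252), a call lost without any 1 of the 6 libraries. The promoter peak of IL12A with the highest count was at 1.21 (adjusted p = 0.353). Of 22 integrins 2 (9.09%) were called, with 2.3% of 87 peaks. ITGB2, the leukocyte beta chain, had 561 and 723 in BrM2, 277 and 313 in LM2 and 267 and 290.5 in Par (1.12 ± 0.27, adjusted p = 0.00288), with H3K4me3 higher as well (2.70 ± 0.51, adjusted p = 2.25e-05). ITGA8 had 16.6 and 40.5 in BrM2, 0.561 and 0.986 in LM2 and 1.74 and 1 in Par, a ratio of 34.4 (95% exact interval 8.89 to 294.4). The ITGB2 call was lost without any 1 of the 4 BrM2 and LM2 libraries, and ITGA8 was at adjusted p of 0.0581 and 0.0971 without BrM2 replicate 1 or LM2 replicate 2 and had none without the others or with the replicate block. Of the 15 marker genes of the line, EGFR alone had called peaks, 3 in all, which were higher in BrM2 (1.40 ± 0.35 and adjusted p = 0.00661 at the one of smallest p).

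**Figure D5:**
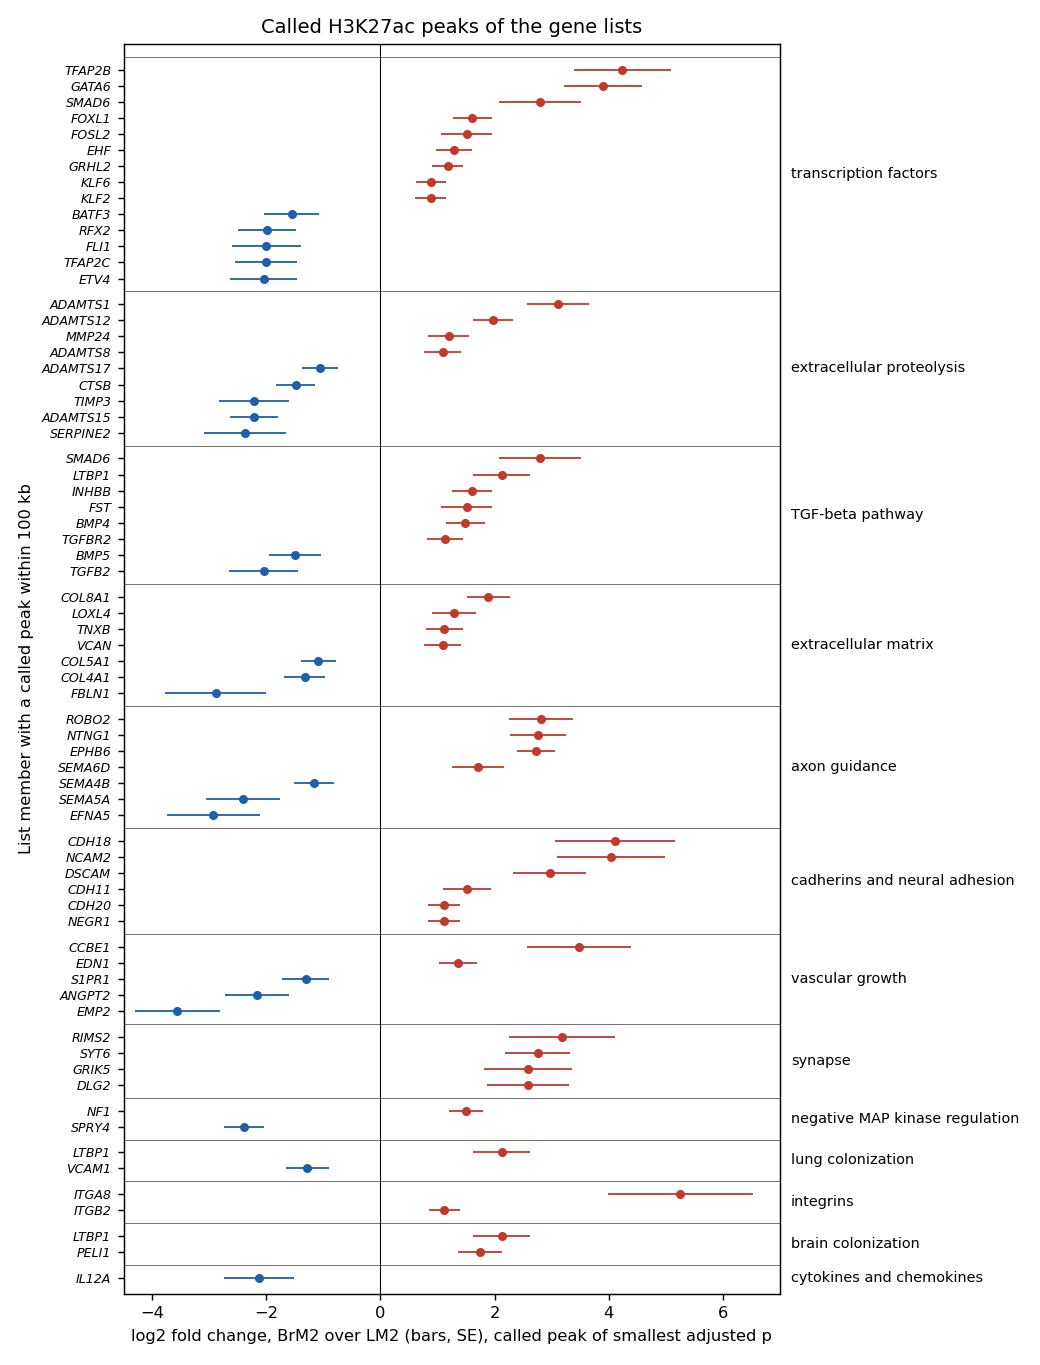
Points are the log2 fold changes (BrM2 over LM2) of the called H3K27ac peak with the smallest adjusted p of each list member, with SE bars from the fit, grouped by list as named on the right. The called members of cadherins and neural adhesion, synapse and integrins lie to the right of 0, and those of the other lists with 3 or more members lie on both sides.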

How the data were processed

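H3K27ac and H3K4me3 ChIP-seq was performed in Par, LM2 and BrM2 cells with 2 replicates each, beside 3 input libraries. The deposited values are raw read counts per consensus peak, which the authors made by calling peaks on pooled libraries and counting reads with featureCounts 1.6.0 per the file headers. The submitters' processing notes name CASAVA 1.8.2, Trimmomatic 0.32, Bowtie2 2.3.4.3, Picard 2.18.21, MACS2 2.1.2 and HOMER 4.10, and the coordinates are hg19. Since peaks were called on pooled reads, a region marked in 1 line may be missing or merged, and no input was subtracted.

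Counts of the 6 H3K27ac libraries were fitted by cell line with DESeq2 1.42.0 in R 4.3.3 (median-of-ratios size factors, Wald test, default independent filtering, unshrunken fold changes). A peak was called at a Benjamini-Hochberg adjusted p under 0.05 over all peaks with an adjusted p. H3K4me3 was fitted in the same way and read only at the named peaks. Values of single libraries are counts divided by size factors, and ± is the SE of the fit. Where a line had few reads, a ratio from summed counts is given with an exact 95% interval, and intervals and floors (3 counts per library) cover counting error only. Library totals in peaks ran from 1994996 to 6450028, and the shallowest library, BrM2 replicate 2, is the least precise.

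Starts of protein-coding genes were taken from GENCODE 44 lifted to GRCh37, and all peak ends lie within the lengths of that reference. Peaks are called intronic, exonic or intergenic by protein-coding genes only, so that an intergenic peak may lie in a gene of another kind. Named were the 8 largest changes in each direction among distal peaks within 100 kb of a start, the 6 genes per direction with most called distal peaks (3 or more), the 3 largest changes per direction among promoter peaks, and up to 4 called members per gene list. For distal and promoter peaks the counts had to average 50 or more and to keep BrM2 and LM2 apart in every library. Windows were printed for the 3 largest changes per direction outside exons with a motif, except 1, whose sequence is not reported here. The members, the lists and the rules were chosen with earlier results of these data known. Peaks with a log2 fold change of 5 or more and runs of calls were picked after values were seen.

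Replicate numbers come from the sample titles, and same-numbered libraries deviated together from their line means (r = 0.48 for LM2 and BrM2, 0.607 for Par and BrM2, 0.407 for Par and LM2, over 20124 peaks), so that these numbers were entered as a replicate block in a further fit, set beside the one by line. No pair of replicates agreed within sampling noise (chi-square per degree of freedom 2.29 to 4.46). Other alternatives were edgeR 4.0.16, other size factors, filters on low counts, removal of chromosome or 5 Mb window medians, and leaving out each library. Peak lists in BED form and the inputs were not used.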

Additional observations from a re-analysis of the deposited data

Results flagged for a closer look

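At 29 of the named H3K27ac peaks, both BrM2 libraries lay on 1 side of both Par libraries and both LM2 libraries on the other. The difference between these opposite departures from Par is the BrM2 to LM2 contrast, by which the peaks had been chosen, so that no further test was made. How many of all tested peaks show this order was not counted. BrM2 and LM2 alone did not overlap in 48.9% of them. At some peaks the side of LM2 rests on single reads. Raw reads at ITGA8 were 1 and 1 in LM2 and 2 and 1 in Par, and at CDH18 2 and 2 in LM2 and 3 and 3 in Par. Peaks near neural genes with BrM2 above and LM2 below Par were at KIRREL3 (log2 fold change of BrM2 over LM2 4.97), CDH18 (4.11), NCAM2 (4.04), NTNG1 (2.76) and SEMA6D (1.71). For signaling genes the values were 3.54 at BMP10, 2.77 at FFAR4, 1.49 at BMP4, 1.5 at NF1, 1.75 at PELI1 and 3.48 at CCBE1. Among transcription factors they were 4.24 at TFAP2B, 1.44 at NPAS2 and 1.18 at GRHL2, and for matrix and adhesion genes 5.26 at ITGA8, 1.98 at ADAMTS12 and 1.12 at TNXB. FRMD4A (1.14), ATRNL1 (2.5) and GSDMC (1.71) belong to the same group.

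BrM2 lay below and LM2 above Par at UBAC2 (-3.0), LRRK1 (-2.88), PTPRG (-2.51), SORCS2 (-2.22), SLCO3A1 (-2.21), ANGPT2 (-2.16), IL12A (-2.13), COL4A1 (-1.33) and VCAM1 (-1.28). At no peak of the 29 did both departures from Par pass an adjusted p of 0.05. At KIRREL3 BrM2 differed from Par by 4.2 (adjusted p = 5.06e-10) and LM2 by -0.77 (adjusted p = 0.82). BMP10 was the reverse, with BrM2 at 0.85 (adjusted p = 0.0785) and LM2 at -2.69 (adjusted p = 1.76e-11). At VCAM1 the departure of LM2 was 0.08 (adjusted p = 0.985).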

How the results depend on the processing

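The 1366 called peaks became 2574 with the replicate block (1858 distal, 716 promoter, 1527 genes, and 18 in place of 9 H3K4me3 calls at the named peaks). They became 2419 with edgeR's quasi-likelihood test (1949 distal, 470 promoter, 1309 genes) and 7803 with edgeR and the replicate block (5688, 2115 and 3885). Among these were 1314, 1366 and 1366 of the 1366. A minimum of 10 counts in each BrM2 and LM2 library left 861 peaks (655 distal), of which 416 were higher and 445 lower, and removing 5 Mb window medians left 855 (710 distal, 145 promoter). Promoter peaks defined by overlap with H3K4me3 gave 412 calls in place of 271. With 1 library left out the ranges were 103 to 1053 peaks, 86 to 839 distal peaks, 17 to 214 promoter peaks and 65 to 633 genes, each lowest without BrM2 replicate 1 (103, 86, 17 and 65), and 5 to 8 H3K4me3 calls, lowest (5) without BrM2 replicate 2.

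The higher share of calls moved from 58.3% to 49.0% with total-count size factors (675 higher and 703 lower) and to 48.3% with the minimum of 10 counts, and among promoter peaks from 53.1% to 41.8% and 36.9%. No scaling moved the median log2 fold change of all peaks by over 0.1. None of the 65 named peaks changed direction under these alternatives. Of the 65, 24 fell below the minimum of 10 counts and were not run under it. The call stood under all alternatives run at 20 peaks, of which KIRREL3, DLEU7, LRRK1, AHNAK and UBAC2 are among those 24, and under all but the left-out libraries at 48. Without BrM2 replicate 1, BrM2 replicate 2, LM2 replicate 1 and LM2 replicate 2, 40, 28, 32 and 25 of the 65 were not called, of which 2, 5, 5 and 1 had no adjusted p. The replicate block left 4 peaks without an adjusted p (CDH18, RIMS2, CCBE1 and ITGA8) and ended no other call among them. TMM size factors left CDH18 and RIMS2 without one, and total-count size factors RIMS2. In each left-out fit the lone library of a line was assumed to vary like the others. Why these counts move was not tested.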
